A study of Rattus norvegicus with 3 samples.

Results

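Antigen presentation by the major histocompatibility complex (MHC, called RT1 in the rat) was examined through 10 genes chosen by name, of 38973 genes on the arrays. Of these, 5 make up the class I machinery (B2m, Tap1, Tap2, Psmb8 and Psmb9) and 5 are class II genes (Cd74, RT1-Da, RT1-Db1, RT1-Ba and RT1-Bb). The study compared the cerebellar cortex after transient occlusion of the right middle cerebral artery (MCAO) with that of sham-operated rats, to describe gene expression in crossed cerebellar diaschisis, a drop of blood flow and metabolism in the cerebellar hemisphere opposite to a cerebral lesion. The contralateral group was the left and the ipsilateral group the right cerebellar cortex of male Wistar rats aged 9 weeks, 2 days after MCAO. The control group was the left cerebellar cortex of male Wistar rats of the same age, 2 days after a sham operation that bared the right carotid artery without opening it. Tissue of 4 rats was combined in each group, and the contralateral and ipsilateral tissues came from the same rats. Each group was measured on 1 array, so no test was possible, no difference has a replicate, and all differences are between pools of tissue. The right side had no control of its own side.

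The arrays were 1-colour microarrays, on which Cy3-labelled RNA binds to probes and the fluorescence of each spot is read. Signals are given as log2 values after each array was scaled to the same 75th percentile, and a difference between 2 arrays is a log2 ratio. Without this scaling every ratio shifts by -0.15 contralaterally and -0.53 ipsilaterally relative to the control group and by 0.38 between the sides. Of 58717 spots other than controls, 42470 stood well above background contralaterally, 43028 ipsilaterally and 43283 in the control group. A gene with a probe well above background on each of the 3 arrays is called measured below, and 23278 genes were measured. Before scaling, the 75th percentile of the signal was 2103, 1614 and 2336 for the contralateral, ipsilateral and control arrays. After scaling, spots made to bind no rat transcript lay 0.51 higher on the ipsilateral than on the control array. Markers of the labelled tissue were present: all 14 genes of a cerebellar cortex list were measured, and their summed signal was 308256, 309420 and 309591 in the same order. Itpr1, the inositol trisphosphate receptor that is abundant in Purkinje cells, was the most abundant of them, by the mean log2 signal of the 3 arrays, as for every list below.

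MHC class I molecules show peptides of the cytosol to cytotoxic T cells and are made by nearly all nucleated cells, though at low levels in neurons of the healthy brain. Psmb8 and Psmb9 are catalytic subunits of the immunoproteasome, which cuts proteins into peptides, Tap1 and Tap2 form the transporter that carries the peptides into the endoplasmic reticulum, and B2m encodes beta-2-microglobulin, the light chain of class I molecules. MHC class II molecules show peptides of engulfed proteins to helper T cells and are made by antigen presenting cells, in the brain above all by macrophages of the borders and by activated microglia. RT1-Da with RT1-Db1 and RT1-Ba with RT1-Bb encode the alpha and beta chains of rat class II molecules, and Cd74 encodes the invariant chain that guards their peptide groove on the way to the lysosome. Interferon gamma induces both classes, class II through the coactivator Ciita.

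The promoters of the class I machinery and of the class II chains were searched for letters that known factors bind. Those shown hold Y box or interferon element letters, which divided the classes in part. The sequences are from RefSeq, build GRCr8, and all 10 genes had an entry of 300 bases, from 250 bases before to 50 bases after the annotated start. The first block shows 88 bases of the 4 class II chain promoters, 5′ to 3′ on the strand of the gene. Capitals mark CTGATTGG, the letters of the Y box that the factor NF-Y binds, and in RT1-Da also CCTAGCAAC, the first letters of an X box that RFX proteins bind.
RT1-Da: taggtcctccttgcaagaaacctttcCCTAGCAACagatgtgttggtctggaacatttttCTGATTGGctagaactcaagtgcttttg
RT1-Db1: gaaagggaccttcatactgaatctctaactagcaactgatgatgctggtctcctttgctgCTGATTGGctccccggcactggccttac
RT1-Ba: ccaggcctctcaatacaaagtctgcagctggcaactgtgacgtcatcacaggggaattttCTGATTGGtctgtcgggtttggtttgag
RT1-Bb: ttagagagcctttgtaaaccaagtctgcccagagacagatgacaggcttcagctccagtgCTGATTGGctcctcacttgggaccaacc

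These stretches lie at chr20:4515303-4515390 on the plus strand (RT1-Da), chr20:4560218-4560305 on the minus strand (RT1-Db1), chr20:4576951-4577038 on the plus strand (RT1-Ba) and chr20:4604155-4604242 on the minus strand (RT1-Bb). The letters CTGATTGG begin 52, 83, 46 and 64 bases before the start in the same order. Searched on both strands, they were present in the promoters of 4 of the 5 class II genes and of 1 class I machinery gene, Psmb9, which holds them 19 bases after its start, against 3.5% of 33469 rat promoters of the same length. CCTAGCAAC was found in RT1-Da alone of the 10 genes, against 0.807% of all promoters. The second block shows 79 bases of class I machinery promoters, with capitals for GAAANNGAA or its reverse complement TTCNNTTTC, letters of an element that interferon regulatory factors bind, where N is any base.
B2m: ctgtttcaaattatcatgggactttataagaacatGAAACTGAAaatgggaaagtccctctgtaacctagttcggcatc
Tap1: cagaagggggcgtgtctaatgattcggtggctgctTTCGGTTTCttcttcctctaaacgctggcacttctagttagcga
Tap2: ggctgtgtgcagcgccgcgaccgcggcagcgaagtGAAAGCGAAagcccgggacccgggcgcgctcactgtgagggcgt
Psmb8: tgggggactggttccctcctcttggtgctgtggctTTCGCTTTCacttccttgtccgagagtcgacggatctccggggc

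They lie at chr3:129549145-129549223 on the plus strand (B2m) and, on the minus strand, at chr20:4668620-4668698 (Tap1), chr20:4652294-4652372 (Tap2) and chr20:4656991-4657069 (Psmb8). These letters were present in 4 of the 5 class I machinery promoters and in 0 of the 5 class II promoters, against 9.71% of all promoters. The interferon and X box letters were shortened to 9 after a first search with longer forms had been seen, so these shares are for the short forms. No promoter of the 10 held both these interferon letters and the Y box letters. CCAAT, which the Y box letters contain on the other strand, was found in 8 of the 10, against 37.5% of all promoters. A match describes letters and does not show that a factor was bound. On chromosome 20 the protein-coding genes follow each other in the order RT1-Da, RT1-Db2, RT1-Db1, RT1-Ba, RT1-Bb, RT1-DOb, Tap2, Psmb8, Tap1 and Psmb9, so that 8 of the 10 genes are near neighbours.

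In the class I machinery, 4 of 5 genes were measured, and with the main setting Psmb9 was the only one of these whose ratio to the control group exceeded the error. Without scaling the ipsilateral ratios of B2m (-0.38), Tap2 (-0.46) and Psmb8 (-0.35) exceeded it too. B2m had log2 signals of 13.88 on the contralateral, 14.02 on the ipsilateral and 13.87 on the control array. Its log2 ratio to the control group was 0.0091 contralaterally and 0.15 ipsilaterally, within the error of 0.20 that the scanner software gives for the ratio. This error covers neither rats nor hybridisations. The light chain gene was read from 1 spot.

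Tap2 had log2 signals of 8.89, 8.97 and 8.89 (contralateral, ipsilateral, control, an order kept below). Its log2 ratios to the control group were -0.0022 and 0.072, each with a scanner error of 0.20, and its 2 probes gave 0.018 and -0.022 contralaterally and 0.076 and 0.068 ipsilaterally. The transporter gene Tap2 thus differed from the control group by less than the measuring error on either side with the main setting. Tap1, its partner, was near the detection limit: 1 of its 2 probes stood well above background in the control group only, with log2 signals of 3.42, 3.79 and 4.10. By this probe, read from 1 spot, the control signal was 1.61-fold the contralateral and 1.25-fold the ipsilateral signal. These are measured ratios to signals not well above background, so they set no minimum. The other probe was not well above background on any array. With it averaged in, the ipsilateral ratio of Tap1 was 0.99 with a scanner error of 0.75. The 1.61-fold and 1.25-fold values thus hold for the first probe alone, and no direction is given for the gene.

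Psmb8 had log2 signals of 7.55, 7.85 and 7.67, with ratios to the control group of -0.12 contralaterally and 0.18 ipsilaterally and a scanner error of 0.21. Its 2 spots differed on the ipsilateral array, where they read 7.65 and 8.06. Psmb8 lay within the error on both sides, but was beyond it ipsilaterally with normexp (0.27) and contralaterally without scaling (-0.28). Psmb9, another immunoproteasome subunit, had log2 signals of 7.71, 7.97 and 8.20, and was thus lowest on the contralateral and highest on the control array. Its ratio to the control group was -0.49 contralaterally, with a scanner error of 0.20, and -0.24 ipsilaterally, with an error of 0.21. The ipsilateral ratio fell within that error with quantile normalization (-0.20), 50 added to the signal (-0.20) and normexp (-0.10). Psmb9 was read from 1 spot, and 6.21% of the measured genes had a lower contralateral ratio.

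Over all 5 class I machinery genes, Tap1 included at its measured values, the median ratio to the control group was -0.12 contralaterally and 0.15 ipsilaterally, each less than the median scanner error of the members. The median over all 38973 genes was 0.039 contralaterally and 0.13 ipsilaterally. The contralateral median of the class I machinery was 0.017 with normexp background correction and -0.28 without scaling, which is beyond the error. The ipsilateral one was -0.38 without scaling, also beyond the error, and -0.10 with scaling to spike-in probes.

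Of the 4 measured class II genes, 3 were lower than in the control group contralaterally and 3 were higher ipsilaterally, where RT1-Da and RT1-Db1 turned lower without scaling. Of all measured genes, 48.1% were lower contralaterally and 56.4% higher ipsilaterally. Cd74 had log2 signals of 7.66 on the contralateral, 8.10 on the ipsilateral and 8.20 on the control array. Its log2 ratio to the control group was -0.55 contralaterally, a signal 1.46-fold lower, with a scanner error of 0.20, and -0.11 ipsilaterally with the same error. The contralateral fall of the invariant chain thus exceeded the error. The ipsilateral ratio lay within it, but was beyond it with scaling to spike-in probes (-0.36) and without scaling (-0.64). In RNA of whole tissue, fewer cells that make a transcript and less of it per cell cannot be told apart. Of the 10 spots of its probe, 8 were used, and the ratio over the single spots ran from -0.65 to -0.23 contralaterally (SD 0.13, n = 8 spots of 1 array pair) and from -0.22 to -0.013 ipsilaterally (SD 0.066).

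RT1-Da, a class II alpha chain, had log2 signals of 5.82, 6.54 and 6.05. Its ratio to the control group was -0.23 contralaterally and 0.49 ipsilaterally, each with a scanner error of 0.21. The contralateral ratio lay within that error under 4 alternatives, from -0.20 with scaling to the median to -0.050 with normexp. RT1-Db1, the beta chain that pairs with it, had signals of 6.56, 7.32 and 6.98, and ratios of -0.42 and 0.35 with an error of 0.21, within which the latter fell with scaling to spike-in probes (0.093). For both chains the control array thus lay between the contralateral and the ipsilateral array, which without scaling was no longer so. RT1-Bb, a beta chain, had signals of 6.13, 6.67 and 6.07, and ratios of 0.063 contralaterally, within the error, and 0.60 ipsilaterally, beyond the error of 0.21 but within it without scaling (0.070). RT1-Ba, the alpha chain that pairs with it, was not well above background on any array, with signals of 0.96, 1.55 and 2.84, so its ratios carry no direction.

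**Figure D1:**
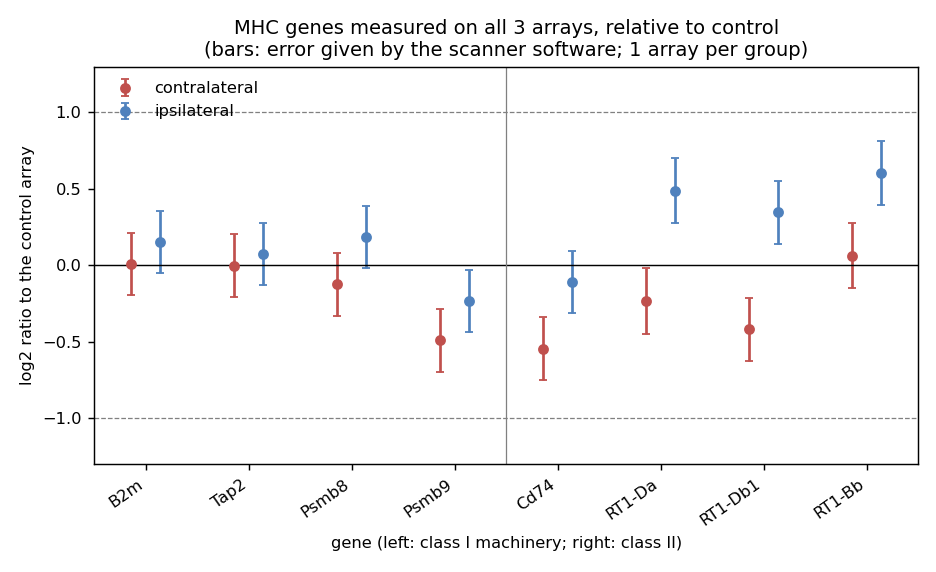
Log2 ratio to the control array (vertical axis) for the 8 measured MHC genes (horizontal axis), in the contralateral (red) and ipsilateral (blue) cerebellar cortex; points are single ratios of 1 array pair, bars the error given by the scanner software, and dashed lines a log2 ratio of 1 and -1. In each gene of both classes the ipsilateral point lies above the contralateral one, an order that the class I machinery loses without scaling, where ipsilateral ratios shift by -0.53 and contralateral ones by -0.15.

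None of the 8 measured genes had a log2 ratio above 1 or below -1, the threshold of the study's methods. Of all measured genes, 1.5% were above 1 and 1.05% below -1 contralaterally relative to the control group, 3.48% and 0.872% ipsilaterally, and 0.245% and 1.99% between the sides. Over all 5 class II genes, RT1-Ba included at its measured values, the median ratio to the control group was -0.42 contralaterally and 0.35 ipsilaterally, and over the 4 measured genes -0.33 and 0.42. The contralateral median stayed below 0 under all 10 alternatives, from -0.57 without scaling to -0.050 with normexp. The ipsilateral median was -0.19 without scaling, where the median of all genes was -0.40, and 0.093 with scaling to spike-in probes.

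Between the sides of the same rats, all 4 measured class II genes were lower on the contralateral side. The contralateral minus ipsilateral log2 ratio was -0.77 for RT1-Db1, -0.72 for RT1-Da, -0.54 for RT1-Bb and -0.44 for Cd74, each with a scanner error of 0.21. As a fold, the ipsilateral over the contralateral signal was 1.70, 1.65, 1.46 and 1.35 in the same order. Each of these differences exceeded the error of its ratio, but without scaling those of RT1-Bb (-0.16) and Cd74 (-0.055) lay within it. In the class I machinery the same ratio was -0.31 for Psmb8, -0.26 for Psmb9, -0.14 for B2m and -0.074 for Tap2, and those of B2m and Tap2 lay within the error. All 8 measured genes were thus below 0, as were 54.2% of all measured genes, but without scaling all 4 of the class I machinery turned above 0.

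All used spots of the measured class II genes were lower contralaterally than ipsilaterally after scaling, without which each of these ratios is higher by 0.38. The contralateral minus ipsilateral ratio ran from -0.75 to -0.69 over the 2 spots of RT1-Da, from -0.77 to -0.76 over the 2 spots of RT1-Db1 and from -0.60 to -0.22 over the 8 spots of Cd74. For Psmb8 it was -0.47 in one spot and -0.15 in the other. Over replicated probes well above background, the SD of the log2 signal between spots had a median of 0.046 to 0.047 on the arrays.

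**Figure D2:**
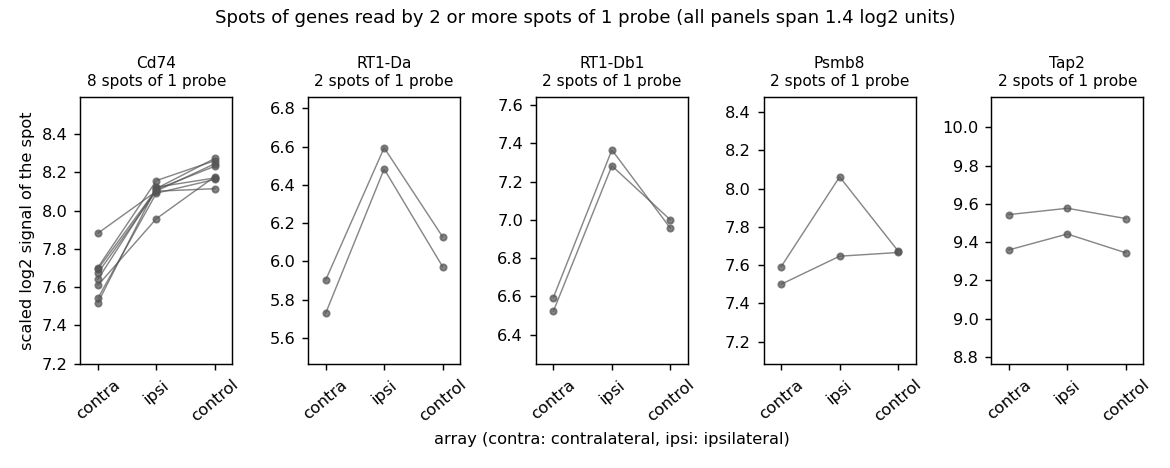
Scaled log2 signal (vertical axis) of each spot used, on the contralateral, ipsilateral and control arrays (horizontal axis), for genes with 2 or more spots of 1 probe; a line joins the readings of 1 spot position, and all panels span the same height. The spots of Cd74, RT1-Da and RT1-Db1 are lowest on the contralateral array at every position, while the spots of Psmb8 differ on the ipsilateral array and those of Tap2 run nearly level.

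Beside genes of like brightness, the class II genes lay near the low end between the sides. Among the 5275 measured genes whose mean log2 signal lay in the range of these 4 genes, 6.13 to 7.99, the median contralateral minus ipsilateral ratio was -0.011 and 52.3% were below 0. In this range 0.701% of the genes had a lower ratio than RT1-Db1, 0.853% than RT1-Da, 2.26% than RT1-Bb and 4.08% than Cd74. Of all measured genes, the shares were larger, 3.86%, 4.32%, 7.32% and 9.97% in the same order. The range was chosen after the values were seen, and the shares describe single genes on these arrays.

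The median over all 5 class II genes was -0.58 between the sides, which is the value of RT1-Ba, a gene not well above background, and over the 4 measured genes it was -0.63. The median was -0.26 for the class I machinery and -0.11 for all genes. The 4 measured class II genes were below 0 under each alternative, and 65.4% of all genes were so with the main setting. Without scaling the class II median was -0.20 while that of all genes was 0.28. The class I machinery did not keep its direction, with a median of 0.12 without scaling and of -0.084 with scaling to spike-in probes.

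The difference between the classes within an array pair does not depend on a scaling factor. The median of the class II genes minus that of the class I machinery was -0.30 in the contralateral to control comparison, 0.19 ipsilaterally, and -0.33 between the sides. The scanner error of each of these differences was 0.29, so the ipsilateral one lay within it and the others were about as large as it. These comparisons share arrays. Over probes well above background on every array the differences were -0.26, 0.31 and -0.43. Adding 50 to the signal brought them to -0.063, 0.15 and -0.18, and normexp to -0.067, 0.26 and -0.16.

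Class I heavy chains, the RT1-A, RT1-CE, RT1-M and related genes, most of which pair with beta-2-microglobulin, were lower than in the control group in most measured probes of both MCAO arrays, though with normexp the ipsilateral median over all 29 genes was 0.031. Of 36 genes listed, 29 had a probe and 22 were measured. Of these 22 genes, 17 were below 0 contralaterally and 16 ipsilaterally, against 48.1% and 43.6% of all measured genes. Their median log2 ratio was -0.47 contralaterally and -0.21 ipsilaterally. Over all 29 genes it was -0.48 and -0.14.

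RT1-A1, a classical heavy chain, had log2 signals of 11.06, 11.40 and 11.98, and ratios to the control group of -0.91 and -0.58. RT1-A2, the most abundant of the list by that mean though not on the control array, had signals of 11.38, 11.62 and 11.76, and ratios of -0.38 and -0.14. Both were thus highest on the control array and lowest on the contralateral one. RT1-CE11 had the lowest contralateral ratio among the genes read by measured probes alone, -1.19, with -0.97 ipsilaterally, and RT1-CE7 followed with -1.04 and -1.05. RT1-M4 had the highest, 1.41 contralaterally and 2.11 ipsilaterally, with signals of 5.70, 6.40 and 4.29. RT1-M3-1 was at -0.020 and -0.013.

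Probes of 1 heavy chain gene differed. The probes of RT1-CE16 gave -1.40 and -0.50 contralaterally, those of RT1-S3 -1.20 and -0.50, and those of RT1-CE13 -1.08 and -0.17. Class I heavy chains include near-identical copies that differ between rats, so a probe can bind several of them and can bind alleles unequally, and their values are uncertain. The control array and the MCAO arrays carry different rats, so alleles and levels cannot be told apart here. Between the sides, where the rats are the same, the median of the 22 genes was -0.17, with 20 below 0, beside 54.2% of all measured genes. Without scaling the median over the 29 genes was 0.20.

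**Figure D3:**
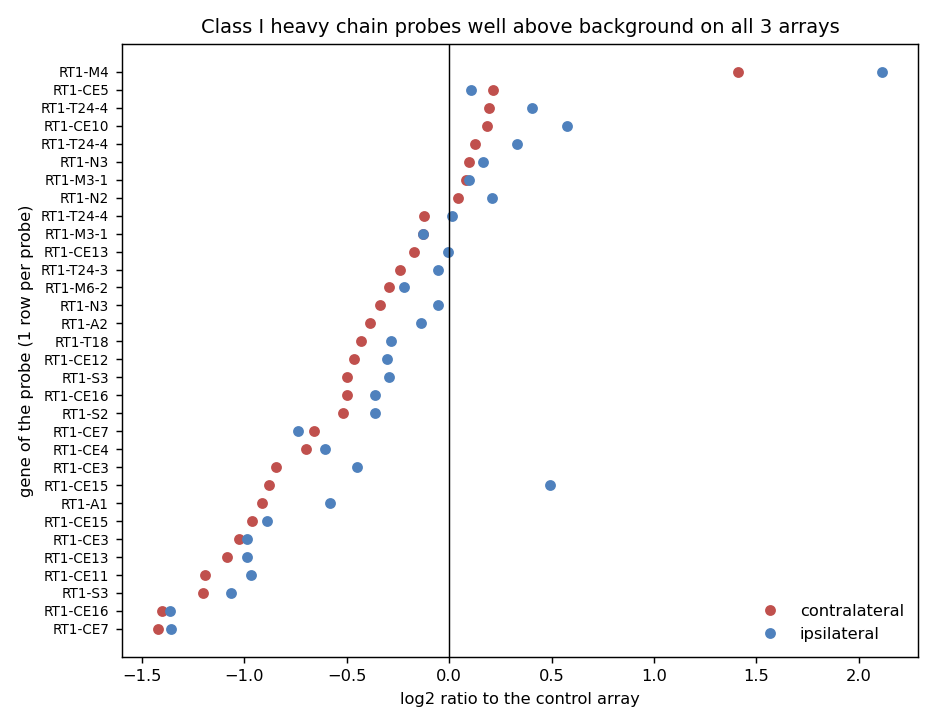
Log2 ratio to the control array (horizontal axis) of the 32 class I heavy chain probes well above background on every array, 1 row per probe with its gene (vertical axis), in the contralateral (red) and ipsilateral (blue) cerebellar cortex. Of these probes, 24 lie below 0 contralaterally and 22 ipsilaterally, and both points use the same control array; without scaling all contralateral points would shift by -0.15 and all ipsilateral ones by -0.53.

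Genes that supply and load peptides for class I molecules had medians near 0, but without scaling of -0.22 contralaterally and -0.60 ipsilaterally. All 11 listed genes with a probe were measured, and their median log2 ratio was -0.071 contralaterally and -0.065 ipsilaterally, with 8 and 9 genes below 0, beside 48.1% and 43.6% of all measured genes. Psme2, a subunit of the proteasome activator and the most abundant of the list, was at -0.14 and -0.060. Psmb10, a further immunoproteasome subunit, was at -0.15 and -0.13, with log2 signals of 12.08, 12.11 and 12.23. Tapbp, which encodes tapasin, the bridge between the transporter and the class I molecule, was lowest contralaterally at -0.19. Its relative Tapbpl was highest, at 0.37 contralaterally and 1.56 ipsilaterally, with signals of 4.32, 5.50 and 3.94.

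The 6 measured beta subunits of the constitutive proteasome had a median log2 ratio of 0.0028 contralaterally and 0.078 ipsilaterally, which turned to -0.15 and -0.46 without scaling. Psmb4, the most abundant, was at -0.029 and 0.058, and Psmb2 was highest contralaterally at 0.049. Psmb5, which Psmb8 replaces in the immunoproteasome, was at 0.048 and 0.14, and Psmb6, which Psmb9 replaces, was lowest at -0.070 and at 0.044 ipsilaterally. With the main setting, Psmb6 and Psmb10 thus lay within the scanner error of 0.20 on the contralateral side, where Psmb9 exceeded it. Without scaling, a shift of -0.15, both would lie beyond that error. With scaling to spike-in probes, a shift of -0.080, Psmb10 would do so too.

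The class II accessory genes RT1-DMa and RT1-DMb, which exchange peptides on class II molecules, differed between the sides by less than the scanner error after scaling, but without it exceeded that error with the sign turned. RT1-DMa had log2 signals of 8.51, 8.63 and 8.41, and RT1-DMb had 7.83, 7.96 and 7.81. Their contralateral minus ipsilateral ratios were -0.12 and -0.13, within scanner errors of 0.20 and 0.21, and their ratios to the control group were 0.097 and 0.017 contralaterally and 0.21 and 0.14 ipsilaterally. RT1-DOa was not well above background on any array, and RT1-DOb was so on the control array only. RT1-Db2, a beta chain gene next to RT1-Db1, had signals of 3.84, 4.32 and 4.63 and ratios to the control group of -0.80 and -0.32. Its contralateral minus ipsilateral ratio was -0.48, beyond a scanner error of 0.35. Without scaling, a shift of 0.38, it would lie within that error. The median of the 3 measured genes was 0.017 contralaterally and 0.14 ipsilaterally, and without scaling the median over all 5 genes with a probe turned to -0.13 and -0.39.

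Lysosomal proteins that prepare peptides and trim the invariant chain had a median log2 ratio of 0.11 contralaterally and 0.097 ipsilaterally over the 9 measured of 10 genes. Without scaling the median over all 10 genes turned to -0.037 and -0.42. Ctss, the protease that makes the last cut in the invariant chain, was highest in both comparisons, at 0.39 and 0.37 with log2 signals of 11.73, 11.71 and 11.34 and a scanner error of 0.20, within which the ipsilateral ratio fell without scaling and with scaling to spike-in probes. Ctsb, the most abundant gene, was at 0.11 and 0.097, and Ctsh lowest contralaterally, at -0.078. Between the sides the 9 genes had a median of 0.016.

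Among transcription factors and signalling genes of the MHC, of 16 genes with a probe, 13 were measured, with values averaged over all probes of a gene. Their median was 0.015 contralaterally and 0.038 ipsilaterally, and without scaling the median over all 16 genes turned to -0.13 and -0.43. Rfx5, the most abundant of them and a subunit of the factor that binds the X box, was at 0.11 and 0.020, its partner Rfxap was highest at 0.31 and 0.25, and Nfyb, a subunit of NF-Y, was lowest of the genes read by measured probes alone, at -0.076 and -0.096. Ciita, the coactivator of class II transcription, was near the detection limit: 1 of its 2 probes stood well above background on every array, with log2 signals of 3.77, 4.67 and 3.63, and the other on none. By the first probe Ciita was at 0.13 contralaterally and 1.04 ipsilaterally, and without scaling the latter shifts by -0.53. Averaged over both probes it was at -0.43 and 0.032, with scanner errors of 0.60 and 0.70. No direction is therefore given for Ciita. Irf1, which carries interferon signals to class I genes, was at -0.071 contralaterally and 0.038 ipsilaterally. Nlrc5 had no probe matched by its name.

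Interferon induced genes, which share inducers with the MHC genes, were lower than in the control group in most members, though with normexp the ipsilateral median over all 23 genes was 0.12. Of 23 genes, 19 were measured, with a median log2 ratio of -0.29 contralaterally and -0.17 ipsilaterally and with 15 and 14 genes below 0 (beside 48.1% and 43.6% of all measured genes). Bst2, an antiviral membrane protein, was lowest contralaterally at -0.94, and Gbp2, a guanylate binding protein induced by interferon gamma, was at -0.60 contralaterally and 0.013 ipsilaterally. Mx2 was the most abundant and the highest contralaterally, at 0.54, with 0.58 ipsilaterally. It made up most of the summed signal of all 23 genes, which was 45650, 47086 and 34905 (contralateral, ipsilateral, control). The log2 ratio of that sum to the control group was 0.39 and 0.43, which without scaling shifts by -0.15 and -0.53. Between the sides the 19 genes had a median of -0.071, and the median over all 23 was 0.22 without scaling.

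**Figure D4:**
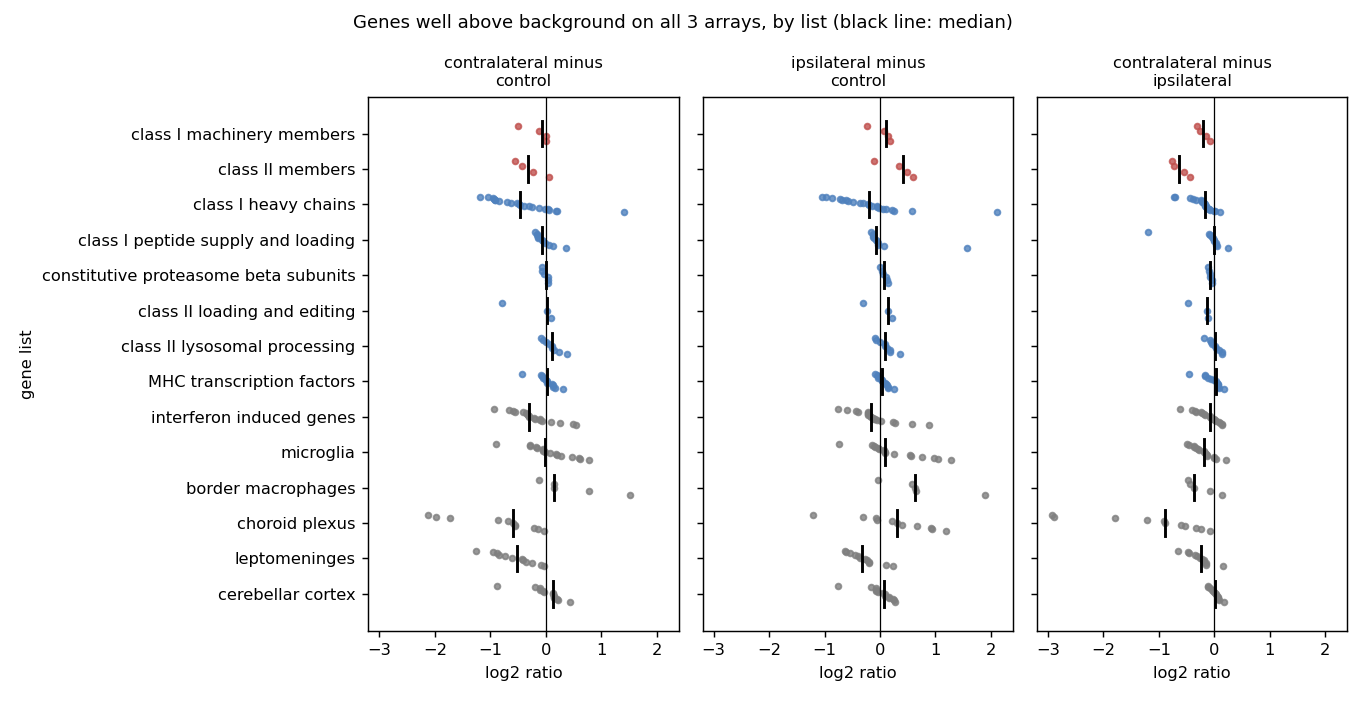
Log2 ratios (horizontal axes) of measured genes by gene list (vertical axis), for contralateral minus control, ipsilateral minus control and contralateral minus ipsilateral; points are genes, black lines medians, red the 10 genes chosen by name where measured, blue other genes of the pathway, grey interferon induced genes and markers of cell types. Between the sides the class II genes (median -0.63) and the choroid plexus markers (median -0.89) lie farthest below 0 of the lists shown; without scaling this comparison shifts by 0.38.

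Markers of cells that carry class II molecules, or that could differ between the dissections, were set beside the MHC genes, and their part in the MHC values was not tested. Of 17 microglia markers, all measured, 15 were lower on the contralateral than on the ipsilateral side, beside 54.2% of all measured genes, with a median of -0.18 (0.20 without scaling), and their summed signal was 22564, 26705 and 18778 (contralateral, ipsilateral, control). Their median ratio to the control group was -0.014 contralaterally and 0.082 ipsilaterally, and -0.17 and -0.45 without scaling. Cx3cr1, the fractalkine receptor, had log2 signals of 11.20, 11.69 and 10.42 and was highest relative to the control group. P2ry13 was lowest, at -0.90 and -0.73.

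Of 6 border macrophage markers on the array, 5 were measured, with a median of -0.37 between the sides (over all 6 -0.022 without scaling). Of these 5, 4 were below 0, beside 54.2% of all measured genes. The summed signal of the list was 522, 680 and 454. Folr2, the most abundant, was at 0.15 contralaterally and 0.62 ipsilaterally. Cd163, a scavenger receptor, was highest at 1.52 and 1.89, Lyve1 lowest contralaterally at -0.11, and Mrc1 stood well above background on the control array only. Among dendritic cell markers, 4 of 8 were measured, with a median of -0.37 between the sides (over all 8 -0.092 without scaling). Of these 4, 3 were below 0, beside 54.2% of all measured genes. The summed signal over all 8 was 1607, 1758 and 1681, most of it from Itgae. Itgae, the most abundant, was at -0.16 and -0.18 relative to the control group, Clec10a was highest contralaterally at 0.41, and Xcr1, Clec9a, Cd209a and Ccr7 were not well above background on any array.

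Many markers of lymphocytes were not measured. Of 7 B cell markers 4 were measured, and the summed signal over all 7 was 204, 255 and 206. All 4 were lower on the contralateral than on the ipsilateral side, beside 54.2% of all measured genes, with a median of -0.44. Over all 7 this median was -0.45 with the main setting and 0.026 with quantile normalization. Pax5, the most abundant, was at -0.16 contralaterally, and Blnk was at 0.021, respectively the lowest and the highest of the genes read by measured probes alone. Of 16 T and NK cell markers 6 were measured, and the summed signal over all 16 was 420, 485 and 390. Of these 6, 4 were lower on the contralateral than on the ipsilateral side, beside 54.2% of all measured genes, with a median of -0.21. Over all 16 this median was -0.46 with the main setting and -0.0048 with quantile normalization. Nkg7, the most abundant by the mean though not on the control array, was highest at 0.87 and Cd8a lowest at -0.57 contralaterally, and Cd3e and Cd2 were not well above background on any array.

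Of 11 monocyte and neutrophil markers 4 were measured, and the summed signal over all 11 was 968, 945 and 961. Of these 4, 2 were lower on the contralateral than on the ipsilateral side, beside 54.2% of all measured genes, with a median of -0.11. Over all 11, dim genes included, this median was -0.83. Most of the summed signal came from Vcan, with log2 signals of 9.65, 9.42 and 9.62 beside 9.92, 9.88 and 9.91 for the sum. The sum thus says little of the other markers. Vcan was the most abundant at 0.022 contralaterally, S100a9 the highest at 0.58 and Lcn2 the lowest at -0.061. Ccr2 was not well above background on any array. Of 7 genes listed for antigen presenting cells, not all of them costimulatory, 3 were measured: Cd40, Cd274 and Fcer1g. The summed signal over all 7 was 954, 1135 and 979, most of it from Fcer1g. All 3 were lower on the contralateral than on the ipsilateral side, beside 54.2% of all measured genes. Their median between the sides was -0.28 (over all 7 -0.033 without scaling). Fcer1g, the most abundant, was lowest contralaterally at -0.12, Cd274 highest at 0.32, and Cd86 was not well above background on any array.

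Choroid plexus markers differed between the sides. Of 14 genes, 11 were measured, and all 11 were lower on the contralateral side, beside 54.2% of all measured genes, with a median of -0.89 (over all 14 genes -0.52 without scaling). The summed signal of the list was 12031, 78829 and 36008 (contralateral, ipsilateral, control). Ttr, the transthyretin gene and the most abundant of them, had log2 signals of 13.27, 16.20 and 15.01, so the control array lay between the sides, as it did for RT1-Da and RT1-Db1. This order did not hold for the whole list: 4 of the 11 genes were below the control array ipsilaterally too, beside 43.6% of all measured genes. The median of the 11 relative to the control group was -0.60 contralaterally and 0.30 ipsilaterally (over all 14 -0.11 ipsilaterally without scaling). Slc4a5 was lowest contralaterally, at -2.12, with -1.20 ipsilaterally. Otx2 was highest contralaterally, at -0.025, and Cldn2 was not well above background on any array. Whether tissue of the plexus took part in the class II values was not tested.

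Leptomeningeal markers, all 12 measured, had a median of -0.52 contralaterally and -0.32 ipsilaterally relative to the control group and of -0.24 between the sides, where it was 0.14 without scaling, and a summed signal of 90605, 105227 and 101634. Ptgds was the most abundant and made up most of this sum. It was at -0.080 contralaterally, Dcn was the highest, at -0.033, and Col1a1 the lowest, at -1.26. Endothelial markers, all 11 with a probe measured, had medians of -0.19 and -0.10 and a summed signal of 6706, 6826 and 8234. Cldn5 was the most abundant by the mean though not on the control array, at -0.19 contralaterally, Erg the highest, at 0.23, and Emcn the lowest, at -0.76. The cerebellar cortex list ran from -0.87 for Grm4 to 0.45 for Zic2 contralaterally, and its median between the sides was 0.012.

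Among 11260 named genes read by measured probes alone, those whose ratios to the control group on the 2 sides were nearest to Cd74 were Tnnt3, Aldh1a2, Il17re, Tubb6 and Doc2g, at distances of 0.030, 0.030, 0.032, 0.045 and 0.047 log2 units. Aldh1a2 had ratios of -0.58 and -0.11, beside -0.55 and -0.11 for Cd74. Nearest to B2m were Atp6v1f, Klhdc9, Eci3, Ddx56 and Cmtr2, at distances of 0.0060 to 0.0085. These likenesses rest on 3 arrays.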

How the data were processed

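Pooled total RNA was labelled with Cy3 and hybridised to Agilent arrays by the authors, who deposited spot intensity values from Agilent Feature Extraction 12.1.0.3, background-subtracted by that software and not scaled between arrays, with its flags and errors per spot. A second deposited table holds the same intensity values on a linear scale multiplied by 1 factor per array (1.12, 1.45 and 1.04 for contralateral, ipsilateral and control; medians 139, 140 and 147); whether these factors are the normalization to control samples named in the methods is unknown. Here log2 signals were shifted to a common 75th percentile, 759 outlier spots were dropped, and spots, then probes of a gene, were averaged. A probe counted as well above background when at least 0.5 of its spots were flagged so. Accessions were named through RefSeq (GRCr8), where 17622 of 39957 matched. The error of a ratio combines the scanner errors of its arrays and is not reduced for repeated spots. A median takes the median error of its members, and a difference of medians combines both. The number of arrays limits the precision, and no test was made. The folds of Tap1 set the control array against the higher of the dim signal and the lowest signal well above background. This was the dim signal in both comparisons.

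The 10 genes, the 18 other lists and the promoter letters were chosen with earlier results of these data known. Named genes were the 10, members of the pathway lists, the most abundant gene of each list (mean of the arrays), its highest and lowest gene by the contralateral ratio among genes whose every probe was well above background on every array, and the 5 nearest to Cd74 and B2m; Gbp2 and the absent markers were named after their values were seen, and some genes under this rule and 1 of 5 motifs searched are not reported here. As alternatives, arrays were left unscaled, scaled to their median or by 8 spike-in probes, or quantile normalized; background was corrected with normexp on median signals (offset 50), the deposited values were used, 50 was added to the signal, dim probes were left out, the brightest probe stood for its gene, and outlier spots were retained. The steps were tested on simulated data. Software was Python 3.11.15 (numpy 2.4.6, pandas 2.3.3, matplotlib 3.10.9) and R 4.3.3 (limma 3.58.1).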

Additional observations from a re-analysis of the deposited data

Results flagged for a closer look

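Of the 5 class II genes, RT1-Da and RT1-Db1 lay below the control group in the contralateral and above it in the ipsilateral cerebellar cortex, where both turned below without scaling. RT1-Da had a log2 ratio of -0.23 contralaterally and 0.49 ipsilaterally, and RT1-Db1 had -0.42 and 0.35, each beyond the scanner error of 0.21. The contralateral value of RT1-Da lay within that error when arrays were scaled to their median (-0.20), with quantile normalization (-0.19), with 50 added to the signal (-0.13) and with normexp (-0.050), and the ipsilateral value of RT1-Db1 did so with scaling to spike-in probes (0.093). The median of the 5 class II genes, -0.42 and 0.35, is the value of RT1-Db1 in both comparisons. With 1 array per side the difference was not tested, and both ratios use the same control array.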

How the results depend on the processing

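Of the medians and their differences under the 10 alternatives, 81 values moved by less than the scanner error, 7 moved by more, and 2 that had exceeded the error changed sign. Of the values of single genes, 259 moved by less, 29 by more, and 6 that had exceeded the error changed sign. Of these alternatives, 4 apply 1 factor per array and so cannot move a class II minus class I machinery difference, and keeping outlier spots left it unchanged; these values are among the 81. In the other 5 it kept its sign (ranges -0.30 to -0.063 contralaterally, 0.15 to 0.31 ipsilaterally and -0.43 to -0.16 between the sides). Without scaling, the ipsilateral median was -0.19 for class II and -0.38 for the class I machinery, and between the sides they were -0.20 and 0.12. RT1-Da (-0.046) and RT1-Db1 (-0.19) ipsilaterally, and Psmb8 (0.074) and Psmb9 (0.12) between the sides, also changed sign there, since a factor between arrays shifts all genes alike. With scaling to spike-in probes the ipsilateral medians were 0.093 for class II and -0.10 for the class I machinery. The contralateral class II median was -0.050 with normexp and -0.14 with 50 added to the signal, where the median between the sides was -0.36. For RT1-Ba with normexp (0.0068 contralaterally) and Tap1 by its brightest probe (-0.32 ipsilaterally) the sign also changed. Neither gene was well above background on every array, so these changes give no direction for the gene. The cause of these other changes was not tested. The folds given for Tap1 are for its brightest probe alone. No paired analysis was possible because each group has 1 array.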
